A study of Mus musculus with 8 samples.

Results

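The *Hoxc* cluster was described region by region from SMCHD1 ChIP-seq in mouse neural stem cells (NSCs). Its regions were all listed windows on chromosome 15 that overlap the span from the first base of *Hoxc13* to the last base of *Hoxc4*, chr15:102921103-103036852 in GRCm38. The rule took 53 of 2840 regions. A region was assigned to any of the 9 *Hoxc* genes whose coordinates overlap the peak at the centre of its window. In the same way 3 regions were assigned to the noncoding RNA gene *Hotair*. With *Hoxc5* taken by its RefSeq coordinates, 18 peaks overlap no gene, and their regions were left unassigned.

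SMCHD1 is a chromosomal protein that represses clustered genes and the inactive X chromosome, and *MommeD43* is a point mutation of *Smchd1* first found in a mutagenesis screen and remade, for the lines used here, by CRISPR/Cas9 editing in mice whose *Smchd1* was already fused to GFP. The experiment asked whether the mutation changes where SMCHD1 sits on chromatin. GFP ChIP-seq was performed on MNase-digested nuclei with an anti-GFP antibody. Every line compared carries the GFP tag on its endogenous SMCHD1, so untagged SMCHD1 was not measured. There were 3 primary female NSC lines with the tagged protein and otherwise wild-type *Smchd1*, called wild-type here, and 3 homozygous for *MommeD43* on the tagged allele, all derived from C57BL/6J embryos at E14.5 and labelled as grown for fewer than 10 passages. Cultured NSCs are not the embryonic tissue in which *Hox* genes pattern the vertebral column, and the markers of the cell type were not measured. Each value is the authors' merged log2 normalized read count of the 3 lines of a genotype over a window, that is a published SMCHD1 peak with 5000 bp on each side. A window thus has 1 value per genotype, and the genotypes were compared without a spread over lines and without a test.

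*Hox* genes encode homeodomain transcription factors that give cells along the head-to-tail axis their positional identity. They lie in clusters in the order in which they act, with genes for anterior levels at one end and genes for posterior levels at the other. In the *Hoxc* cluster all *Hox* genes are transcribed from the plus strand, *Hoxc13* is the most posterior gene and *Hoxc4* the most anterior. Repression of posterior *Hox* genes in anterior cells depends on chromatin, and SMCHD1 is known to take part in it.

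The 300 bases at the centre of 5 peaks are shown, on the plus strand of GRCm38.p6 (RefSeq assembly), with each CG in capitals. These peaks were taken as the extremes of level and of difference, and as the narrowest peak. None of the 5 stretches overlaps an exon or UTR in GENCODE M21. The peak with the highest signal per kb lies at *Hoxc8*, and the stretch chr15:102991501-102991800 lies in its intron. The peak with the lowest signal lies before *Hoxc13*, with the stretch chr15:102916426-102916725. The largest difference between genotypes was at a peak inside the *Hoxc4* span, with the intronic stretch chr15:103028926-103029225, and the smallest at a peak between *Hoxc11* and *Hoxc10*, with the stretch chr15:102958426-102958725. The narrowest peak of the cluster, chr15:102948901-102949200, lies between *Hotair* and *Hoxc11* and is shown whole.
Hoxc8 peak, highest signal: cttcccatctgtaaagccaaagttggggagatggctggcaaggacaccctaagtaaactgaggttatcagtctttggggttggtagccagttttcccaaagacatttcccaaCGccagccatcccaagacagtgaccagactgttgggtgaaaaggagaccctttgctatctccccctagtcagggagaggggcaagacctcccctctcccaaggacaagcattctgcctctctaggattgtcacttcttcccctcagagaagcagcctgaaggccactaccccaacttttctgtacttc
Peak before Hoxc13, lowest signal: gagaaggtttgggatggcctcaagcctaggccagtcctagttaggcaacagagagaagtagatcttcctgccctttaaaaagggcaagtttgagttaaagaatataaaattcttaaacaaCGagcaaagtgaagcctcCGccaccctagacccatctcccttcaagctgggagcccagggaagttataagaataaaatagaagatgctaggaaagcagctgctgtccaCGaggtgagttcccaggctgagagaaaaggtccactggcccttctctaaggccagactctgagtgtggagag
Hoxc4 peak, largest difference: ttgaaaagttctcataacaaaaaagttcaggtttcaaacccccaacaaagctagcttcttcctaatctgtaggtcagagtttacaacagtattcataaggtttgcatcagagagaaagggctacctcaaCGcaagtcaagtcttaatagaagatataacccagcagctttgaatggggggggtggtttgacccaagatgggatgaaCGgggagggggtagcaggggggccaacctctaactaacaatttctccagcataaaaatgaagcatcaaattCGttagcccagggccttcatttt
Peak after Hoxc11, smallest difference: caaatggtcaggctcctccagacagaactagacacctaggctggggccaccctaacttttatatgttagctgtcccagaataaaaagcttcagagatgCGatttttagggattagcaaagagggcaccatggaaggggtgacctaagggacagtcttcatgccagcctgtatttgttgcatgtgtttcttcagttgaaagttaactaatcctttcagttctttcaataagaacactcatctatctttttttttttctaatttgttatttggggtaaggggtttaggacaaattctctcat
Narrowest peak: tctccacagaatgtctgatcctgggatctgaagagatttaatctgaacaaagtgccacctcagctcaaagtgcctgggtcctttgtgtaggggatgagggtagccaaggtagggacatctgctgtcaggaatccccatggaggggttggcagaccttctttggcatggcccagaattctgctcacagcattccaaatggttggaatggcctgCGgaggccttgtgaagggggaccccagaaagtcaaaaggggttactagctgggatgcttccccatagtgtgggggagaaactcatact
The *Hoxc8* stretch holds 1 CG, the stretch after *Hoxc11* 1 and the narrowest peak 1, whereas the stretch before *Hoxc13* and that in *Hoxc4* hold 3 each. The letters CG read the same on both strands. At least 1 CG was found in the central 300 bases of 46 of the 53 *Hoxc* peaks and of 83.9% of all 2840 peaks, with medians of 4 and 2 and a range from 0 to 31 among the *Hoxc* peaks. Of the promoters of the *Hoxc* genes, that of *Hoxc4* was found in the RefSeq promoter table, at chr15:103034145-103034444. It holds 9 CG, more than 54.2% of the 32851 promoters in the table, of which 94.6% hold at least 1. It lies in no listed peak and within an annotated UTR of a longer *Hoxc4* transcript, so its bases are not printed.

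SMCHD1 signal was lowest at the ends of the cluster and highest in a broad stretch from *Hoxc10* to *Hoxc5*, in both genotypes. Medians over the 53 regions were 10.28 for wild-type and 10.41 for *MommeD43*, and the values ranged from 9.29 to 10.81 and from 9.35 to 10.93 (log2 normalized count). Divided by window length, a step that corrects for length alone, the level had a median of 6.83 per kb in wild-type and 6.92 per kb in *MommeD43* cells (log2). The level per kb spanned 1.16 log2 units along the cluster in wild-type NSCs, a 2.23-fold range, and 1.23 log2 units in *MommeD43* cells, a 2.34-fold range. The cluster thus had a similar range of levels in the genotypes. Outside the 4 *Hox* clusters the median level was 4.27 and 4.31 per kb over 2672 regions, and 93.7% of those regions lay below the lowest *Hoxc* region in wild-type NSCs. In order of the deposited wild-type value among all 2840 regions, the *Hoxc* regions held ranks between 12 and 357.

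**Figure D1:**
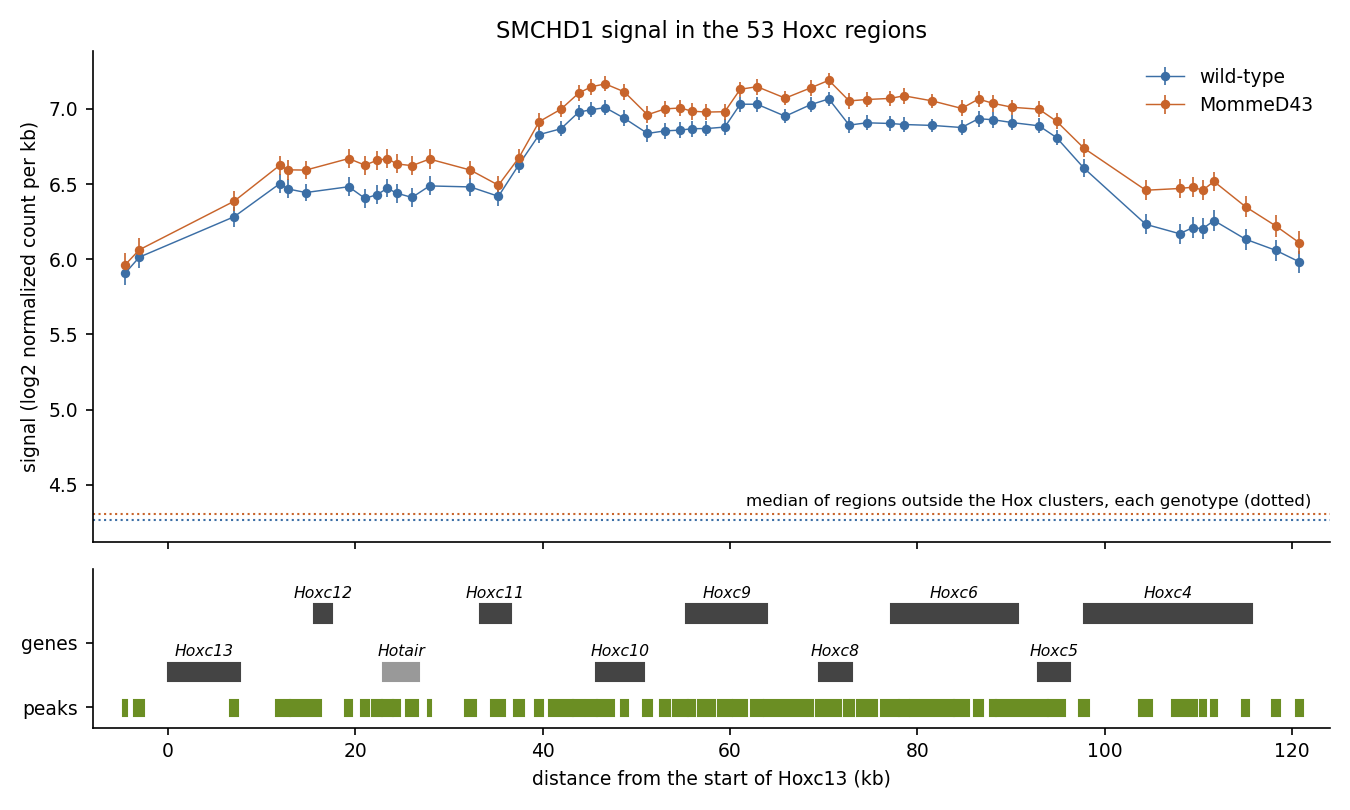
SMCHD1 signal per kb (log2 normalized count divided by window length) at the 53 *Hoxc* regions, plotted at the centre of each peak against the distance from the start of *Hoxc13* in kb. Blue is wild-type and orange *MommeD43*, bars are 95% counting intervals of the level, dotted lines are medians of the 2672 regions outside the *Hox* clusters, and the lower track gives the genes and peaks, with *Hoxc5* by its RefSeq span. Both curves are highest from *Hoxc10* to *Hoxc5* and lowest at the ends.

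All 53 windows share bases with another listed window, so that neighbouring values share reads. The overlap joins them, with 8 windows beyond the rule's span, into 1 stretch of 164950 bp with 61 regions. A set of 11 windows that share no bases, taken from the left, counts each read once. From the first to the fourth window of this set, before *Hoxc13*, at *Hoxc13*, between *Hoxc12* and *Hotair* and before *Hoxc11*, the level was 5.91, 6.28, 6.48 and 6.48 per kb in wild-type and 5.96, 6.39, 6.67 and 6.59 in *MommeD43* cells. The next windows, before *Hoxc10*, in *Hoxc9*, before *Hoxc8*, in *Hoxc6* and at *Hoxc5*, had 6.98, 6.87, 7.03, 6.89 and 6.81 per kb in wild-type and 7.10, 6.98, 7.14, 7.05 and 6.92 in *MommeD43* cells. The last windows, within *Hoxc4* and past it, had 6.17 and 5.98 per kb, and 6.47 and 6.11 in *MommeD43* cells. Windows without shared reads thus showed the same broad maximum in the middle of the cluster.

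The low values of the file gave the mean log2 library factor of each genotype, and with it a geometric mean of 906 reads per wild-type library and 846 per *MommeD43* library in the median *Hoxc* region. The lowest was 456 and 406 reads. The counting SD of a difference between genotypes was then 0.03 to 0.06 (median 0.04, log2). It is a lower bound, since variation among lines and PCR duplicates are left out.

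*Hoxc13*, the most posterior gene, which is needed for hair and nail formation, had the least peak coverage of the 9 genes. Its coordinates are chr15:102921103-102928814 (ENSMUSG00000001655), and 11.7% of its bases lay in peaks. The longest stretch of the cluster without a peak, 9150 bp, covers most of the gene. The 1 region assigned to it, with the peak chr15:102927751-102928650 over the gene's end, had 6.28 per kb in wild-type and 6.39 in *MommeD43* cells. The difference of the deposited values was 0.10 (counting SD 0.05), but 0.05 (counting SD 0.05) in the region nearest to the gene's start, which is within counting error.

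*Hoxc12*, *Hoxc11* and the long noncoding RNA gene *Hotair*, which is transcribed from the minus strand between them, lay on a plateau of similar level in wild-type NSCs, whereas in *MommeD43* NSCs the region at *Hoxc11* was lower than the other 2, although the region nearest to that gene's start, at 6.59 per kb, was level with *Hoxc12*. At *Hoxc12* (chr15:102936757-102938609, ENSMUSG00000050328), a posterior gene, the 1 region had 6.44 per kb in wild-type and 6.59 in *MommeD43* cells, with 40.2% of the gene's bases in peaks. At *Hoxc11* (chr15:102954427-102957708, ENSMUSG00000001656), a gene expressed in the hindlimb and the lumbosacral region, the 1 region had 6.42 per kb and 6.49. All annotated exon bases of *Hotair* (chr15:102944062-102947946, ENSMUSG00000086903) lay in peaks, and its 3 regions had a median of 6.44 per kb in wild-type and 6.63 in *MommeD43* cells. The median difference was 0.20 at *Hotair*, 0.15 at *Hoxc12* and 0.07 at *Hoxc11*, where the region nearest to the gene's start had 0.11. *Hotair* was thus between genes with smaller differences in the deposited values, and the differences of all 3 windows at *Hotair* lay between 0.19 and 0.21. The median counting SD was 0.045 at *Hotair*, 0.041 at *Hoxc12* and 0.045 at *Hoxc11*. Windows at *Hotair* share bases with those of both genes, and these gaps were not set against a counting interval.

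Between *Hoxc11* and *Hoxc10*, a distance of less than a window's length, the level passed from that of *Hoxc11* to the maximum. The region at *Hoxc11* had 6.42 per kb, the next, with the peak chr15:102958051-102959100, had 6.63, and the region with the peak chr15:102964351-102965550 before *Hoxc10* had 6.98 per kb in wild-type NSCs. In *MommeD43* NSCs the same 3 regions had 6.49, 6.67 and 7.10 per kb. The region just past *Hoxc11* had the smallest difference of the cluster, 0.05, which is within its counting error (SD 0.04).

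*Hoxc10*, which specifies lumbar identity in vertebrae and motor neurons, was at the posterior edge of the maximum. At *Hoxc10* (chr15:102966796-102971893, ENSMUSG00000022484) the median of its 4 regions was 6.97 per kb in wild-type and 7.13 in *MommeD43* cells, and 52.9% of the gene's bases lay in peaks. The microRNA gene *Mir196a-2* (chr15:102973350-102973434), whose product targets *Hox* transcripts, lies between *Hoxc10* and *Hoxc9* and in none of the peaks. The nearest peak began 301 bp past its start, and that region had 6.85 per kb and 7.00.

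The trunk genes *Hoxc9*, *Hoxc8* and *Hoxc6* carried the densest peaks. *Hoxc9* (chr15:102976439-102985099, ENSMUSG00000036139), which sets thoracic identity in motor neurons, had 7 regions with a median of 6.88 per kb in wild-type and 7.01 in *MommeD43* cells. *Hoxc8* (chr15:102990607-102994111, ENSMUSG00000001657), which acts in the thoracic skeleton and in forelimb motor pools, had 2 regions with a median of 6.98 and 7.12 per kb. *Hoxc6* (chr15:102998257-103011881, ENSMUSG00000001661), a gene of brachial and thoracic levels, had 7 regions with a median of 6.90 and 7.05 per kb. Peaks covered 84.4% of the bases of *Hoxc9*, 91.4% of *Hoxc8* and 90.1% of *Hoxc6*. The highest level of the cluster was that of the region over the start of *Hoxc8*, with the peak chr15:102990301-102993000, at 7.07 per kb in wild-type and 7.19 in *MommeD43* cells. The next highest in wild-type NSCs were the regions with the peaks chr15:102981451-102982950 and chr15:102983401-102984600 in *Hoxc9*, both at 7.03 per kb. They had 7.13 and 7.15 per kb in *MommeD43* cells.

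*Hoxc5* and *Hoxc4*, which act at cervical and upper thoracic levels, stood on either side of the maximum's anterior edge. The coordinates used for *Hoxc5*, chr15:102967443-103017429 (ENSMUSG00000022485), span 24 regions, those of *Hoxc9*, *Hoxc8* and *Hoxc6* and most of *Hoxc10* included, with a median of 6.90 per kb in wild-type and 7.05 in *MommeD43* cells. The RefSeq span of the gene alone, chr15:103014008-103017429, overlaps 2 of these peaks, with a median of 6.85 and 6.96 per kb. The microRNA gene *Mir615* lies wholly in the first of them. *Hoxc4* (chr15:103018934-103036852, ENSMUSG00000075394) had 7 regions with a median of 6.21 per kb in wild-type and 6.47 in *MommeD43* cells, and 35.3% of its bases lay in peaks. Along *Hoxc4*, the region over the first base of these coordinates had 6.61 and 6.74 per kb and the last region 6.13 and 6.35 per kb.

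**Figure D2:**
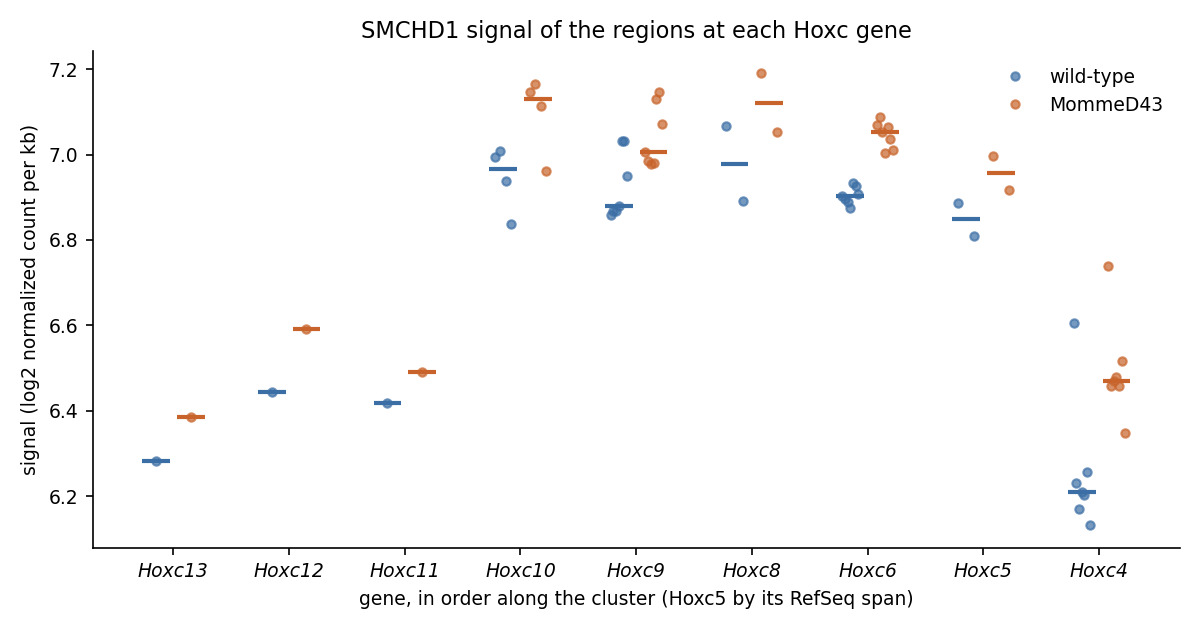
SMCHD1 signal per kb (log2 normalized count divided by window length) of the regions at each *Hoxc* gene, with the genes in their order along the cluster. Each point is a region, blue in wild-type and orange in *MommeD43*, horizontal bars are medians, and *Hoxc5* is shown by its RefSeq span with 2 regions. *Hoxc10* to *Hoxc5* lie above the other 4 genes in both genotypes.

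In wild-type NSCs the genes came in the order *Hoxc8*, *Hoxc10*, *Hoxc6*, *Hoxc5*, *Hoxc9*, *Hoxc12*, *Hoxc11*, *Hoxc13* and *Hoxc4* by median level per kb, with *Hoxc5* by its span of 24 regions. By its RefSeq span *Hoxc5* came after *Hoxc9* in both genotypes. The step from *Hoxc9* to *Hoxc12* was 0.44 and that from *Hoxc11* to *Hoxc13* 0.14, and both were wider than the 95% counting interval of a step (0.08 and 0.09). The interval takes the median counting SD of single windows at each gene and is not that of a median over several. The other steps were within it, so those neighbours did not differ beyond the counting error of single windows, and several of them share windows or reads. In *MommeD43* NSCs *Hoxc10* came before *Hoxc8* and *Hoxc4* before *Hoxc13*, by steps of 0.01 and 0.08 that were within their counting intervals. The step from *Hoxc9* to *Hoxc12* was 0.41, and that from *Hoxc12* to *Hoxc11*, 0.10, was also wider than its interval, but both had 6.59 per kb with the region at or nearest to each gene's start. The last places depended on the regions taken for a gene. With annotated exons *Hoxc4* (6.37 per kb in wild-type NSCs) was above *Hoxc13* (6.28). With the region at or nearest to each gene's start, *Hoxc4* (6.61) was above *Hoxc11* (6.48), *Hoxc12* (6.44) and *Hoxc13* (6.01). Under both, *Hoxc4* was still below *Hoxc10*, *Hoxc9*, *Hoxc8*, *Hoxc6* and *Hoxc5*, which changed places among themselves. The start taken for *Hoxc4* is the first base of its coordinates and not its RefSeq promoter. The regions with the nearest peaks on either side of that promoter had 6.26 and 6.13 per kb in wild-type NSCs. These values are below those of *Hoxc11* and *Hoxc12* but above that of *Hoxc13* at its start.

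In 53 of 53 *Hoxc* regions the deposited value of *MommeD43* exceeded that of wild-type, against 66.0% of all 2840 regions, but in 17 of 53 after a fit on signal level, against 49.6% of the 2824 regions fitted. That fit was made outside the *Hox* clusters, where 99.6% of regions lay below the median *Hoxc* wild-type value. It thus rests on few regions of this level. After fits on GC content and on window length the difference was above 0 in 32 and 42 of 53, against 51.2% and 51.9%. All regions of the *Hoxa*, *Hoxb* and *Hoxd* clusters were also higher in *MommeD43* in the deposited values. The median difference was 0.13 (log2), compared with 0.07 over all regions. More than 0.5 apart were 0 of 53 regions, against 1.69% of all regions. A difference over 0.25 was seen in 4 of 53 regions, against 16.1% of all regions, and all 4 lie at *Hoxc4*. At both thresholds the share of all regions includes more counting error, since their median counting SD was 0.10 against 0.04. The difference was above its 95% counting interval in 49 of the 53 regions, against 27.4% of all regions, whose intervals were wider (median counting SD 0.10 against 0.04). This says nothing of the variation between lines. Levels of the genotypes ran in parallel along the cluster, with Pearson's r of 0.986 across 53 overlapping regions of the same libraries and 0.988 across the 11 windows that share no bases.

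**Figure D3:**
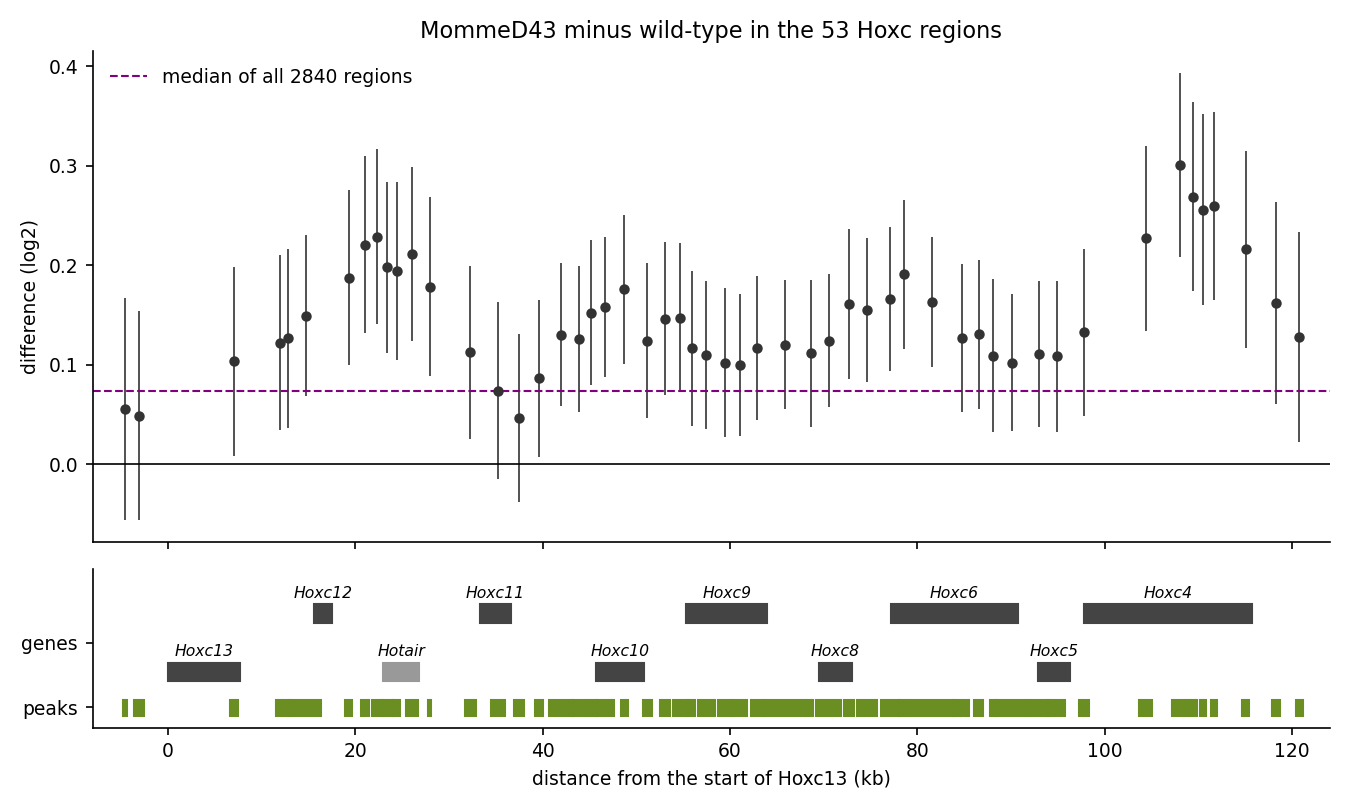
Difference between genotypes (*MommeD43* minus wild-type, deposited log2 values) at the 53 *Hoxc* regions against the distance from the start of *Hoxc13* in kb. Bars are 95% counting intervals and leave out variation between lines, the dashed line is the median of all 2840 regions (0.07), and the lower track gives genes and peaks. All points lie above 0 in the deposited values, with the largest at *Hoxc4* (0.30). After a fit on signal level, which rests on few outside regions at *Hoxc* levels, 17 of 53 are above 0, against 49.6% of the 2824 regions fitted.

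The difference was not even along the cluster. It was largest within *Hoxc4*, where the region with the peak chr15:103028251-103029900 had 9.71 in wild-type and 10.01 in *MommeD43* cells, a difference of 0.30 (counting SD 0.05). The next largest were also within *Hoxc4*, at the peaks chr15:103030051-103030950 with 9.66 and 9.93, and chr15:103032451-103033050 with 9.66 and 9.92. The windows of these 3 peaks overlap and share reads. A separate maximum was seen around *Hotair*, where the region with the peak chr15:102942901-102943950 had 9.89 in wild-type and 10.12 in *MommeD43* cells, a difference of 0.23. Between these maxima, the region past *Hoxc11* had 10.09 and 10.14. The 2 smallest differences after it, 0.05 and 0.06, were at the peaks chr15:102917551-102918600 and chr15:102916351-102916800 before *Hoxc13*. The difference at the *Hoxc4* maximum exceeded that past *Hoxc11* by 0.25, with a counting SD of 0.06 for this gap between windows that share no bases. These regions were picked for their extreme values, so the gap is a description.

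By gene, the median difference was 0.26 at *Hoxc4* and between 0.07 and 0.16 at the other 8 genes. Neighbours in the order of differences were all within the counting error of single windows, including *Hoxc4* and *Hoxc10*, whose step of 0.10 had a counting interval of 0.12. That interval takes the median counting SD of the windows at each gene. Whether medians over several windows differ beyond counting error was not tested. Within *Hoxc4* the region over the first base of its coordinates differed by 0.13, the smallest of its 7 and less than the region at the start of *Hoxc6* (0.17). *Hoxc4* thus came first by the median of its regions and not by that region. The RefSeq promoter of *Hoxc4* lies further along the gene. The regions with the nearest peaks on either side of that promoter differed by 0.26 and 0.22, more than the region at the start of *Hoxc6*.

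Divided after the values were seen, the cluster fell into 3 stretches by peak centre, which leave out 4 regions centred beyond the genes. From *Hoxc13* to *Hoxc11*, 13 regions had medians of 6.44 per kb in wild-type and 6.62 in *MommeD43* cells and a median difference of 0.18. Past *Hoxc11* to the end of *Hoxc5*, 29 regions had medians of 6.90 and 7.05 per kb and a median difference of 0.12. Past *Hoxc5* to the end of *Hoxc4*, 7 regions had medians of 6.21 and 6.47 per kb and a median difference of 0.26. Of these 3 stretches the middle had the highest median levels and the smallest median difference. The regions left out before *Hoxc13* had lower levels, 5.91 and 6.01 per kb in wild-type NSCs, and smaller differences, 0.06 and 0.05. Those past *Hoxc4* also had low levels, 6.06 and 5.98 per kb, but differences of 0.16 and 0.13, above the median of the middle stretch. Peaks covered 39.7%, 81.9% and 35.5% of the bases of the 3 stretches.

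Outside the *Hox* clusters the difference was larger at higher signal levels (Spearman's rho 0.306 across 2656 regions, which are not replicates). Across the 53 overlapping *Hoxc* regions rho was -0.247, but across the 11 that share no bases it was 0.20, so the sign within the cluster depended on the windows taken. After subtraction of a local fit on signal level, made outside the 4 clusters, the median *Hoxc* difference was -0.031. Since 99.6% of the outside regions lay below the median *Hoxc* wild-type value, the fit rests on few regions at *Hoxc* levels. The difference after the fit was above 0 in 7 of 13 regions from *Hoxc13* to *Hoxc11*, in 3 of 29 in the middle stretch and in 6 of 7 at *Hoxc4*, where its median was 0.10, against 49.6% of the 2824 regions fitted. The stretch from *Hoxc13* to *Hoxc11* was thus close to the share of all regions. How far the level accounts for the difference was not tested.

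**Figure D4:**
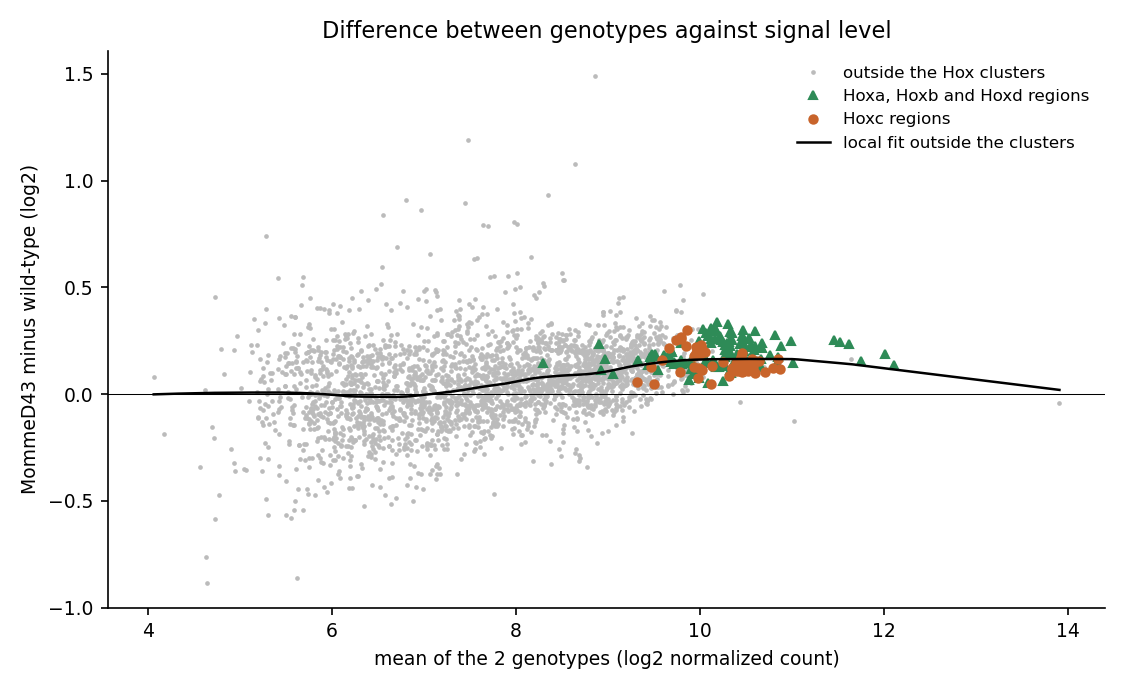
Difference between genotypes (*MommeD43* minus wild-type, log2) against the mean of both genotypes (log2 normalized count) for regions with a mean above 4. Orange points are the 53 *Hoxc* regions, green triangles the *Hoxa*, *Hoxb* and *Hoxd* regions, grey points the other regions, and the line is the local fit made outside the clusters, from which the median *Hoxc* region lies at -0.031. Few regions outside the clusters lie at the level of the median *Hoxc* region.

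The level followed the density of peaks. The share of a window that lay inside any listed peak ranged from 15.6% to 91.9%, and its Pearson's r with wild-type signal per kb was 0.911 across the 53 regions and 0.889 across the 11 that share no bases. The peaks come from earlier SMCHD1 ChIP-seq, so that this share is not a measure apart from SMCHD1 signal. GC content had an r of 0.609 with wild-type signal per kb across the 53 regions and 0.726 across the 11. The repeat-masked share had an r of -0.317 and -0.477, with a Spearman's rho of -0.131 across the 53. Outside the *Hox* clusters r was 0.782 for GC content and -0.513 for the repeat-masked share across 2656 regions. The *Hoxc* windows had a median GC content of 48.8%, against 41.3% outside the clusters, and a median of 21.0 CG per kb against 9.13. Repeats took up 15.3% of the median *Hoxc* window and 25.4% of the median window outside.

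**Figure D5:**
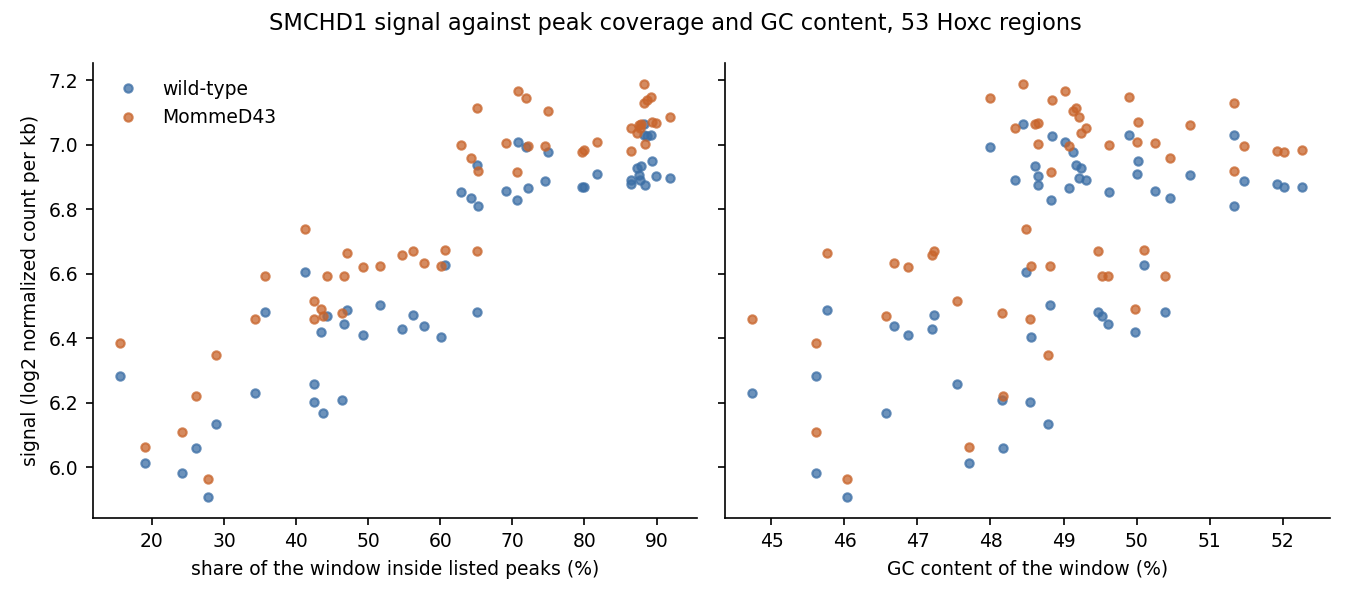
SMCHD1 signal per kb (log2 normalized count divided by window length) of the 53 *Hoxc* regions, blue in wild-type and orange in *MommeD43*, against the share of the window inside listed peaks (left, %) and against its GC content (right, %). Signal was higher in windows with more peak coverage (r 0.911 in wild-type).

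At single peaks, the CG density of the *Hoxc* cluster was uneven. The peak chr15:102981451-102982950 in *Hoxc9* had an observed to expected CG ratio of 0.752, the highest of the cluster, and a window with 7.03 per kb in wild-type NSCs. The peak chr15:102932701-102933450 between *Hoxc13* and *Hoxc12* had a ratio of 0, with 6.50 per kb, as had the peak chr15:103031251-103031850 in *Hoxc4*, with 6.20 per kb. The next highest ratio, 0.736, was at the peak chr15:103032451-103033050 in *Hoxc4*, with 6.26 per kb. High ratios were thus found at high and at low levels. The median ratio was 0.293 over *Hoxc* peaks and 0.215 over peaks outside the *Hox* clusters.

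Compared with the *Hoxa*, *Hoxb* and *Hoxd* clusters, with 32, 56 and 27 regions, the *Hoxc* cluster had the smallest median difference. Its median level, 6.83 per kb in wild-type and 6.92 in *MommeD43* cells, was the highest of the 4 in wild-type NSCs and below those of *Hoxa* and *Hoxd* in *MommeD43* NSCs. This order holds for medians over overlapping windows. Over the 11 *Hoxc* windows that share no bases the medians were 6.48 and 6.67 per kb, and such windows were not taken in the other clusters. The median levels of the other clusters were 6.77, 6.45 and 6.72 per kb in wild-type and 7.00, 6.57 and 6.95 in *MommeD43* cells. Their median differences were 0.26, 0.17 and 0.19, against 0.13 in the *Hoxc* cluster, and none of these gaps between clusters could be tested. In the deposited values *MommeD43* was higher in 32 of 32, 56 of 56 and 27 of 27 regions of the 3 clusters, against 66.0% of all regions. After the fit on signal level it was higher in 30, 34 and 16 of them, against 49.6% of the regions fitted. The difference was above its counting interval in 32, 50 and 26 of them, against 27.4% of all regions. Peaks covered 60.8% of the *Hoxc* span, against 81.9%, 31.5% and 70.1%. Among the paralogs of *Hoxc4*, the median difference was 0.24 at *Hoxa4*, 0.16 at *Hoxb4* and 0.23 at *Hoxd4*. *Hoxc11* had 6.42 per kb in wild-type NSCs, below *Hoxa11* (7.13) and *Hoxd11* (6.94). The other *Hoxc* genes with a *Hoxa* paralog (*Hoxc13*, *Hoxc10*, *Hoxc9*, *Hoxc6*, *Hoxc5* and *Hoxc4*) were also below it. Against *Hoxb* and *Hoxd* paralogs both directions were seen, with *Hoxc8* (6.98) above *Hoxb8* (6.75) and close to *Hoxd8* (6.96), and *Hoxc4* (6.21) below *Hoxb4* (6.29). The gaps between paralogs were not set against a counting interval. With annotated exons *Hoxc4* had 6.37 per kb, above that value of *Hoxb4*.

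Past the cluster, levels were lower than its median on both sides. Before *Hoxc13*, the first region beyond the rule's span, with the peak chr15:102914251-102914850, had 5.97 per kb in wild-type and 6.00 in *MommeD43* cells. Its window overlaps those of the cluster. The next separate region, with its window 48.5 kb from *Hoxc13*, had 4.63 and 4.58. Past *Hoxc4*, the first region, chr15:103042501-103042950, had 5.91 and 6.05 per kb. A region with its window 43.5 kb past *Hoxc4* still had 5.83 and 6.00 per kb.

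Among the 2672 regions outside the *Hox* clusters, 5 had a wild-type level above the *Hoxc* median. Of the 2165 groups of overlapping regions there, the nearest to the *Hoxc* cluster by the Euclidean distance of median levels per kb in the 2 genotypes was a region at *Gm33838* on chromosome 9 (7.03 and 6.99 per kb, distance 0.21). It was followed by 3 regions at *Evx2*, a homeobox gene beside the *Hoxd* cluster, with 6.63 and 6.80 per kb, and then by a region that spans *Flt3l* and *Rpl13a*, with 6.41 and 6.51 per kb.

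Of the genes whose products act with HOX proteins or regulate trunk *Hox* genes, *Meis2* and *Cdx2* are given here. *Meis2*, whose product binds DNA with HOX proteins, had 4 regions with a median of 5.91 per kb in wild-type and 6.26 in *MommeD43* cells. Of *Cdx1*, *Cdx2*, *Cdx4* and *Gdf11*, which regulate trunk *Hox* genes, *Cdx2* overlapped a listed window, in 1 region with 5.82 and 6.12 per kb. The median difference was 0.34 at *Meis2* and 0.30 at *Cdx2*. None of these regions differed by more than 0.5 between genotypes, as did 1.69% of all regions, and 16.1% of all regions differed by more than 0.25.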

How the data were processed

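GFP ChIP-seq was performed in 3 wild-type and 3 *MommeD43* NSC lines. According to the paper, ChIP-seq data from NSCs with the tagged wild-type protein had been published before. The sample labels do not say whether the wild-type libraries used here are those data. WCE libraries, 1 per genotype, were not analysed here. The submitters' processing notes name Trim Galore 0.4.4, Bowtie2 2.3.4.1 and GRCm38.p6. The authors used SeqMonk to count reads in windows of a published peak extended by 5000 bp either way, corrected for library size, merged the replicates and deposited log2 values, 1 column per genotype. The planned per-library tests could not be run. The members and lists were chosen with earlier results of these data known.

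Low values, with a product of reads of the 3 libraries under 10000, gave whole products within 0.05, with 0 reads entered as 0.9, in 14 of 14 wild-type and 29 of 29 *MommeD43* values. Estimated reads and counting SDs follow from this. Named are the *Hoxc* genes and other annotated genes, the 3 most extreme regions each way, paralogs, flanking regions, similar groups and preset partner genes, some of which are not reported here. The *Hotair* maximum and the regions quoted for CG density were named after their values were seen. Genes follow Supplementary Data 2, RefSeq and GENCODE M21. Local fits took a share of 0.3 of 2656 regions outside the *Hox* clusters with a wild-type value above 4. Functions were tested on simulated data. Python 3.11.15, NumPy 2.4.6, pandas 2.3.3, statsmodels 0.14.6 and Matplotlib 3.10.9 were used.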

Additional observations from a re-analysis of the deposited data

How the results depend on the processing

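No paired analysis was possible because the 3 lines of a genotype were merged into 1 value. For the same reason leaving out each library, the replicate block, DESeq2 size factors and the filter on low counts were not run, and no difference between genotypes could be set against variation between lines. The median *Hoxc* difference was -0.031 after a fit on signal level, 0.034 after a fit on length and 0.012 after a fit on GC content, against 0.13. The fit on level rests on few outside regions at *Hoxc* levels. Regions higher in *MommeD43* numbered 17 of 53 after the fit on level, 32 after that on GC content and 42 after that on length, against 49.6%, 51.2% and 51.9% of the 2824 regions fitted, and 50 after subtraction of the median of all regions, against 50.0% of all regions. The cause was not tested. Other settings left the median difference between 0.06 and 0.15. At a threshold of 0.25 instead of 0.5, 4 regions passed instead of 0.

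Median values were 6.83 in wild-type and 6.92 in *MommeD43* cells per kb, which changes the scale, and 9.97 and 10.10 over windows that share no bases. With the region at or nearest to each gene's start, levels per kb in wild-type and *MommeD43* NSCs were 6.01 and 6.06 at *Hoxc13*, 6.48 and 6.59 at *Hoxc11*, 7.07 and 7.19 at *Hoxc8*, 6.61 and 6.74 at *Hoxc4*, and 7.01 and 7.17 at the start of the wide *Hoxc5* span, which lies in a *Hoxc10* region (6.89 and 7.00 at the RefSeq start), and the difference was 0.13 instead of 0.26 at *Hoxc4*, 0.05 instead of 0.10 at *Hoxc13* and 0.11 instead of 0.07 at *Hoxc11*. For *Hoxc4* that start is the first base of its coordinates. The regions with the nearest peaks on either side of its RefSeq promoter had 6.26 and 6.13 per kb in wild-type NSCs and differences of 0.26 and 0.22. With annotated exons *Hoxc4* had 6.37 and 6.54 per kb and a difference of 0.17, and *Hoxc5* had 7.00 per kb in *MommeD43* cells instead of 7.05. With RefSeq spans, chosen after seeing the data, *Hoxc5* had 6.96 per kb in *MommeD43* cells. The other levels and differences by gene moved less than the 95% counting interval.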
